A study of Mus musculus with 7 samples.

Results

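The genes described here encode the nuclear pore and the carriers that move protein and RNA through it: nucleoporins, importins, transportins, exportins, mRNA export receptors and the Ran cycle. They were taken by symbol (names beginning Nup, Xpo, Ipo, Tnpo, Kpna, Kpnb, Ranbp, Nxf or Nxt, with Ran, Rangap1 and Cse1l), which gave 54 of the 9999 genes named in the deposited table. RNA was measured on 7 Affymetrix arrays of RAW264.7 cells, a macrophage-like line from a mouse leukaemia. There were 4 arrays labelled Gfi1 knockout (titled RAW GfI1-1) and 3 arrays labelled wild type (RAW WT), all at the time called T0 and without treatment. Both groups therefore share the line, the medium and the untreated state, and they differ by label in the genotype of Gfi1, a zinc finger repressor of blood cells. How the knockout was made, and whether the title's ending names a clone, the labels leave unsaid. The titles call the replicates biological, without saying what was separate (cultures, days or clones), so each p-value speaks for the scatter of these 7 arrays.

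Proteins and RNA larger than a small globular protein cross the nuclear envelope only through nuclear pores, each built from many copies of the nucleoporins. Importins bind cargo in the cytoplasm and release it in the nucleus when Ran bound to GTP takes its place, and exportins bind cargo together with that form of Ran and release it when Rangap1 has GTP hydrolysed outside. Bulk mRNA takes another route, through Nxf1 and its partner Nxt1. In macrophages the same carriers bring inflammatory transcription factors into the nucleus.

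The 4 knockout arrays formed pairs. Over all 19431 probe sets the SD of the log2 difference was 0.14 to 0.16 between the arrays of a pair (replicates 1 and 2, or 3 and 4) and 0.52 to 0.54 between arrays of different pairs, against 0.13 to 0.19 among wild-type arrays. Against wild-type arrays it was 0.80 to 0.81 for replicates 1 and 2 and 0.56 to 0.57 for replicates 3 and 4, so the pairs differed from each other nearly as much as replicates 3 and 4 differed from wild type. The probe set of Gfi1 itself gave log2 signals of 4.93, 5.02, 3.97 and 3.97 in the knockout arrays and 2.66, 2.85 and 2.98 in the wild-type arrays, so the targeted gene was higher, not lower, under the knockout label. The wild-type mean of 2.83 was below 3.51, the limit of the lowest 5% of genes, so whether Gfi1 was detected in wild type is unclear. Since the files do not place this probe set against the edited stretch, its signal is no check of the labels, on which all directions rest. All 8 macrophage markers looked up were measured and none lay among the lowest 5% of genes. Of these, 5 fell (62.5%, beside 21.6% of all genes) and 0 rose. Their median level was 10.0 to 10.4 in the knockout arrays and 11.4 in each wild-type array, and their part in the results was not tested. Of 4 fibroblast markers only Pdgfrb was measured; it averaged 2.71 in knockout, among the lowest 5%, and 3.90 in wild type, above that limit, and fell by 1.19 (adjusted p = 0.000117). Defining markers of T cells, B cells, epithelium and neutrophils were not among the named genes and were not analysed here.

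Transport genes were more often higher than lower in the arrays labelled knockout. Of the 54, 20 rose and 3 fell (limma, Benjamini-Hochberg adjusted p under 0.05 over all 9999 genes), while 31 did not pass. That is 37.0% higher and 5.56% lower, beside 21.5% higher and 21.6% lower (43.1% in either direction) among all genes tested. The median log2 difference, knockout minus wild type, was 0.17 over the 54 genes and -0.0057 over all genes. All 4 knockout arrays lay above all 3 wild-type arrays for 26 of the 54 genes, which is 48.1% (26.5% of all genes), and below them for 3, which is 5.56% (27.9% of all genes). All 23 genes that passed had groups that did not overlap. The differences were mostly small: 4 genes rose by at least 2-fold (3.75% of all genes did), namely Nxf7, Ranbp3l, Kpna3 and Xpo4. In RNA from whole cultures, fewer cells of a kind and less RNA per cell cannot be told apart.

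These counts treat the 7 arrays as independent. With each knockout pair and the wild-type arrays as random blocks, 4 genes passed and all 4 were higher (Nxf7, adjusted p = 0.0022; Kpna3, adjusted p = 0.00864; Xpo4, adjusted p = 0.00872; Ranbp3l, adjusted p = 0.0434), while the other 19 calls were lost. Without wild type replicate 2, 14 of the 23 calls were kept, and without wild type replicate 3, 16 were kept. Among all genes 448 higher and 456 lower calls were left with such blocks. In that fit the wild-type arrays form 1 block, and a correlation of 0.79 is used for every gene. No block holds both genotypes, so only the knockout pairs show how far blocks of the same genotype differ. Its p-values can therefore be too small, above all for Ranbp3l, whose knockout pairs lay far apart.

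**Figure D1:**
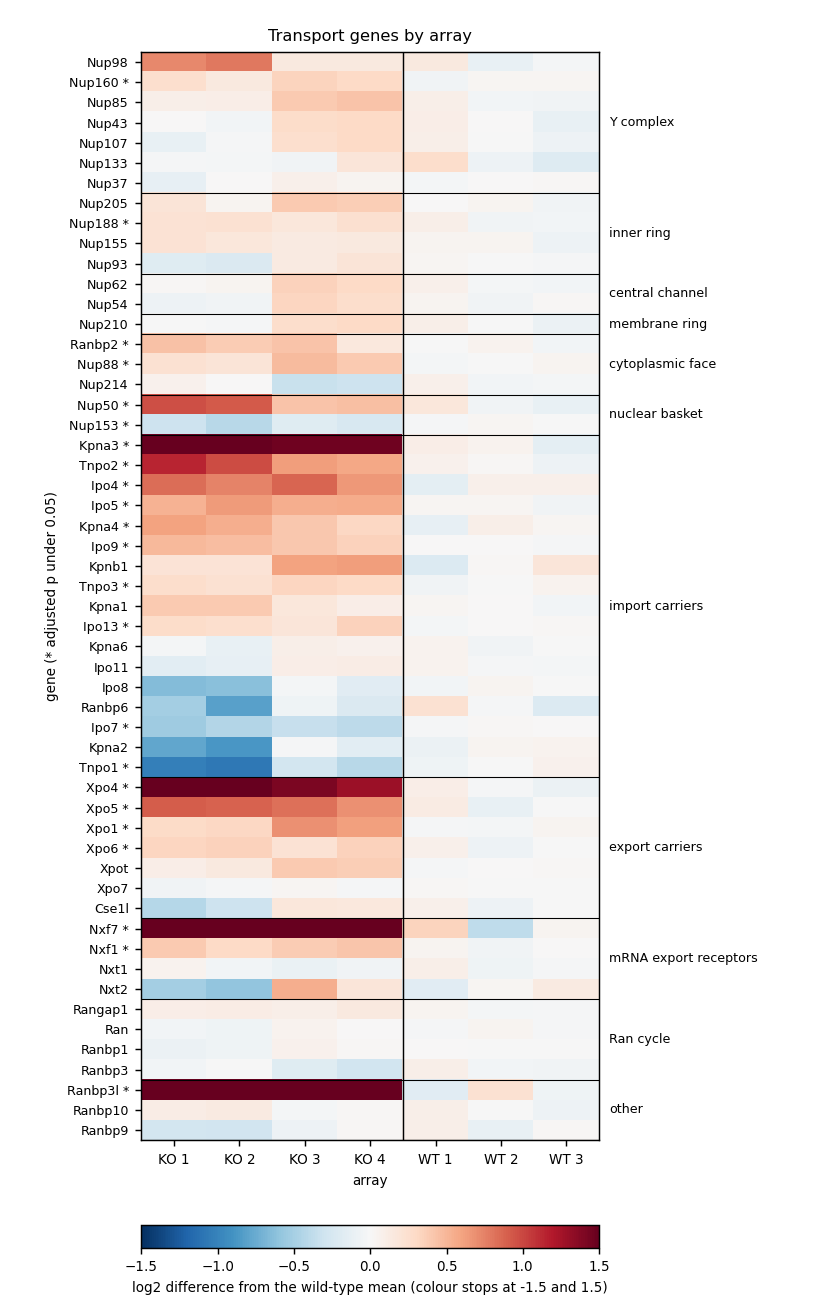
Log2 difference from the wild-type mean for each of the 54 genes (rows, grouped by role) on each array (columns, 4 knockout then 3 wild type). Red is higher and blue lower, colour stops at -1.5 and 1.5, and an asterisk marks the 23 genes that passed. The knockout columns fall into pairs, with Tnpo1 and Kpna2 bluer in replicates 1 and 2 and 13 of 19 pore genes redder in replicates 3 and 4.

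The largest rise was in Nxf7, a member of the nuclear export factor family to which the mRNA receptor Nxf1 belongs. Its log2 signal was 7.35, 7.27, 6.96 and 7.01 in the knockout arrays, against 3.36, 2.64 and 3.06 in the wild-type arrays. The groups lay far apart and the knockout arrays close together, at 7.15 ± 0.19 (SD, n = 4) in knockout and 3.02 ± 0.36 (SD, n = 3) in wild type. The difference was 4.13 (SE 0.18, limma adjusted p = 1.69e-05). Its wild-type mean was below 3.51, the limit of the lowest 5% of genes, so its size cannot be separated from background, and it was the only one of the 54 genes this low in either group. It has 1 probe set.

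Ranbp3l, which encodes a relative of the exportin cofactor Ranbp3, rose as well, but unevenly. Its log2 signal was 5.83, 5.90, 8.50 and 8.47 in knockout replicates 1 to 4, against 3.73, 4.12 and 3.83 in wild type. All knockout arrays were above all wild-type arrays, and replicates 3 and 4 were higher than replicates 1 and 2, a difference that was not tested because the pairs were seen in the data. The difference from wild type was 3.28 (SE 0.75, limma adjusted p = 0.0116). A dimmer Ranbp3l probe set read 2.44, 2.68, 5.25 and 4.81 in knockout and 2.30, 2.12 and 1.93 in wild type. It showed the same order of pairs, and its difference was 1.68 (SE 0.72, limma adjusted p = 0.103 over all probe sets).

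**Figure D2:**
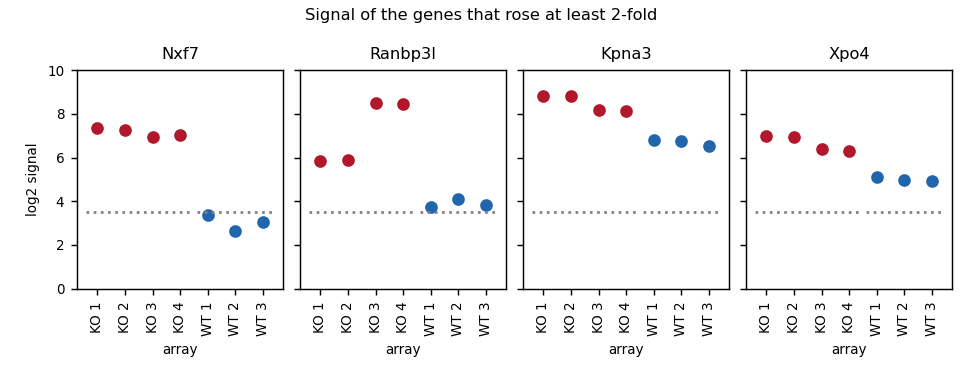
Log2 signal on each array for Nxf7, Ranbp3l, Kpna3 and Xpo4, the genes that rose at least 2-fold, with 4 knockout arrays (red) left of 3 wild-type arrays (blue). Dotted lines mark the limit of the lowest 5% of genes in each group mean, 3.49 in knockout and 3.51 in wild type. Nxf7 alone has wild-type arrays below it, and Ranbp3l alone is higher in knockout replicates 3 and 4 than in replicates 1 and 2.

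The sequences upstream of Nxf7 and Ranbp3l are poor in CpG. RefSeq promoter windows (GRCm38.p6) were found for 44 of the 54 genes, and the 250 bases before the first listed start were used. CpG dinucleotides numbered 2 in the Nxf7 window and 4 in the Ranbp3l window, the lowest counts of the 44 and next to Nup160 with 5 and Nxt2 with 8, against a median of 22 over the 44 and of 10 over 17491 protein-coding genes. Windows with fewer than 5 CpG made up 34.2% of those of all coding genes. In GC content the windows of these 2 genes, at 49.2% for Nxf7 and 48.8% for Ranbp3l, lay near those of Nup160 (50%), Nxt2 and Tnpo2 (46.0% each). The windows of these 2 genes are shown with those of Nxf1, the general mRNA receptor, and Tnpo2, an import carrier that rose, each read 5′ to 3′ on the strand of the gene, with CpG in capitals.
Nxf7, chrX:135598782-135599031, minus strand: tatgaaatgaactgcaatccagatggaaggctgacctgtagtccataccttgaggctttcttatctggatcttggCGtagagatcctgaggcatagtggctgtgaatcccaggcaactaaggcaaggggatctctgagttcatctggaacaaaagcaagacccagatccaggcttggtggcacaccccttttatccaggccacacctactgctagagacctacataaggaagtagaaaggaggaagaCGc
Ranbp3l, chr15:8967699-8967948, plus strand: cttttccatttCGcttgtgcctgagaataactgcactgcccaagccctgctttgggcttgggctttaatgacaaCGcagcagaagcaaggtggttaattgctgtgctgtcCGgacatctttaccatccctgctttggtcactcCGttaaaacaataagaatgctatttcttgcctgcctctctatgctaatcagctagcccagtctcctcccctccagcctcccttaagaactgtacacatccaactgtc
Nxf1, chr19:8756853-8757102, plus strand: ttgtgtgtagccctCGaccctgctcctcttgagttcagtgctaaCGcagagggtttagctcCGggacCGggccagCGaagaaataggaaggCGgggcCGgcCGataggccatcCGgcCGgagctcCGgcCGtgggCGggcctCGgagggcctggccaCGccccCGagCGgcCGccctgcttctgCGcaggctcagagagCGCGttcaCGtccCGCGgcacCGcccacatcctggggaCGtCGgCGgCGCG
Tnpo2, chr8:85036643-85036892, plus strand: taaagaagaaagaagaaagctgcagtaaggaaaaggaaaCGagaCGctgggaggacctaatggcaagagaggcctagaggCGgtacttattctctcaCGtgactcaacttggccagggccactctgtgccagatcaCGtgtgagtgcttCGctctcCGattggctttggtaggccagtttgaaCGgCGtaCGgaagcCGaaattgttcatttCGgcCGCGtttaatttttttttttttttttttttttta
The Nxf1 window holds 30 CpG and the Tnpo2 window 14.

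Known promoter motifs were looked up in the same windows on both strands, for any listed start of a gene. The E-box CACGTG, bound by MYC and related factors, was in 8 of the 44 genes (18.2%) and in 7.61% of coding genes. It was upstream of Tnpo2, Ranbp2 and Nup188, which rose, of Ipo7, which fell, and of Ran, Xpot, Nup54 and Nup93, which did not pass. The ETS motif CCGGAAG was in 7 genes (15.9%) and in 10.2% of coding genes. The NRF1 consensus was in 2 genes, Nup50 and Nup62 (4.55%), and in 1.60% of coding genes, and its core without the outer bases was in 5 genes (11.4%), namely Nup107, Nup50, Nup62, Ran, Xpo5, and in 2.85% of coding genes. The letters AAATCAC, part of the sequence that Gfi1 is known to bind, were in 0 of the 44 and in 2.88% of coding genes. The NF-kappaB consensus was in 1 gene, Xpo1 (2.27%), and in 4.82% of coding genes. The E-box, ETS and NRF1 motifs contain CpG, in which these windows are rich, and the NRF1 core lies within the NRF1 consensus. The letters AAATCAC are mostly A and T, while median GC was 64.2% over the 44 windows and 55.2% over those of coding genes. Its count of 0 is therefore not read as a lack of Gfi1 sites.

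Among the 19 pore genes, 5 rose, 1 fell and 13 did not pass, with a median log2 difference of 0.17. The share that rose was 26.3%, near the 21.5% of all genes, and the share that fell was 5.26%, beside 21.6%. On the knockout arrays the median was 0.060 (replicate 1), 0.042 (replicate 2), 0.27 (replicate 3) and 0.26 (replicate 4), against 0.073, -0.0062 and -0.041 in the wild-type arrays. Only replicates 3 and 4 lay above the wild-type range, and replicates 1 and 2 lay within it. Without replicates 1 and 2, 13 pore genes were higher and 2 lower, and without replicates 3 and 4 the counts were 7 and 2. As shares that is 68.4% higher without replicates 1 and 2, beside 27.7% of all genes under that setting, and 36.8% without replicates 3 and 4, near the 34.1% of all genes there. Leaving out wild type replicate 1, 2 or 3 left 3, 1 or 0 of the pore genes higher. Among all 9999 genes the higher calls also dropped, from 2149 to 1768, 1379 or 1404.

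The Y complex forms the outer rings of the pore. Of its 7 genes, Nup160 rose, with log2 signals of 8.03, 7.92, 8.11 and 8.08 in knockout and 7.72, 7.80 and 7.80 in wild type (difference 0.26, SE 0.067, adjusted p = 0.0186). Nup98, whose product is cleaved into a Y complex protein and a mobile nucleoporin, stood at 9.66, 9.74, 9.09 and 9.09 in knockout and 9.09, 8.83 and 8.91 in wild type. Its replicates 1 and 2 were high and replicates 3 and 4 overlapped wild type, and the difference of 0.45 did not pass (adjusted p = 0.0926). Nup85, Nup107 and Nup43 went the other way, with replicates 3 and 4 high: Nup107 read 8.14, 8.23, 8.50 and 8.55 in knockout and 8.34, 8.24 and 8.17 in wild type. The differences of Nup85, Nup107, Nup43, Nup133 and Nup37 ran from -0.0015 to 0.25.

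In the inner ring, which holds the pore together, Nup188 rose by 0.22 (SE 0.061, adjusted p = 0.026). Nup155 and Nup205 had differences of 0.17 and 0.25 with groups that did not overlap, but did not pass (adjusted p = 0.0597 and 0.0768), and Nup93 stood at -0.016. In the central channel, where carriers meet the FG repeats, Nup62 was the brightest pore gene, at 11.31 ± 0.17 (SD, n = 4) in knockout and 11.14 ± 0.063 (SD, n = 3) in wild type. Neither Nup62 nor Nup54 passed, and for both replicates 3 and 4 lay above wild type. Replicates 1 and 2 of Nup62 lay within the wild-type range. For Nup54 replicate 2 lay at its lower end and replicate 1 just below it. The membrane nucleoporin Nup210 was placed as Nup62 was (difference 0.14, adjusted p = 0.327).

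On the cytoplasmic face, where export complexes are taken apart, Ranbp2 rose by 0.35 (SE 0.084, adjusted p = 0.0136) and Nup88 by 0.32 (SE 0.084, adjusted p = 0.0185). Nup214, the partner of Nup88, stood at -0.14 (adjusted p = 0.352). The nuclear basket gave the largest change and the only fall among pore genes. Nup50, a basket protein that helps importin alpha release its cargo, read 8.68, 8.64, 8.15 and 8.17 in knockout and 7.88, 7.66 and 7.61 in wild type. All knockout arrays were above wild type, replicates 1 and 2 most (difference 0.69, SE 0.16, adjusted p = 0.0131). Nup153, the basket anchor, read 8.35, 8.25, 8.48 and 8.42 in knockout and 8.64, 8.68 and 8.65 in wild type (difference -0.29, SE 0.071, adjusted p = 0.0158). For both basket genes other probe sets went the opposite way, as given further on.

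Of the 17 import carriers, 8 rose (47.1%), 2 fell (11.8%) and 7 did not pass, beside 21.5% higher and 21.6% lower among all genes. Their median difference was 0.27. The strongest rise was in Kpna3, an importin alpha, the adapter that links classical nuclear localisation signals to importin beta. It read 8.83, 8.81, 8.16 and 8.15 in knockout and 6.79, 6.75 and 6.54 in wild type. The groups were well apart, with replicates 1 and 2 above replicates 3 and 4 (difference 1.79, SE 0.20, adjusted p = 0.000627). This probe set had the highest mean only through its knockout values: in wild type it averaged 6.69 and another Kpna3 probe set 7.52. Kpna4, a close relative of Kpna3, rose by 0.47 (SE 0.094, adjusted p = 0.00698).

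The other adapters did not pass. Kpna2, the importin alpha of dividing cells and the brightest import carrier, read 9.77, 9.68, 10.53 and 10.39 in knockout and 10.45, 10.59 and 10.59 in wild type. Replicates 1 and 2 were low, replicate 4 lay just below wild type and replicate 3 within it. The difference of -0.45 did not pass (SE 0.22, adjusted p = 0.136). Division markers were unevenly placed in the same arrays: over 9 measured markers the median difference from wild type was -0.91, -0.90, -0.17 and -0.15 in knockout replicates 1 to 4, against 0.028, 0.013 and -0.026 in wild type, and 2 of the 9 fell (Top2a and Birc5), a share of 22.2% beside 21.6% of all genes. In Mki67, Top2a, Ccnb2, Cdk1, Aurka, Plk1 and Birc5 all knockout arrays lay below all wild-type arrays, as they did in 27.9% of all genes. Cenpa stood at 0.29, with all knockout arrays above wild type, and Bub1 at 0.19, and neither passed. The part of the division markers in the Kpna2 values was not tested. Kpna1 stood at 0.27 with groups that did not overlap (adjusted p = 0.0502) and Kpna6 at 0.0055.

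Among the importins of the beta family, Tnpo2, a transportin, read 7.88, 7.71, 7.36 and 7.31 in knockout and 6.80, 6.75 and 6.66 in wild type (difference 0.83, SE 0.15, adjusted p = 0.00405). Ipo4, a carrier of histones and ribosomal proteins, read 8.77, 8.67, 8.80 and 8.59 in knockout and 7.78, 8.0 and 8.01 in wild type (difference 0.78, SE 0.087, adjusted p = 0.000602). Ipo5, which also carries ribosomal proteins, read 9.58, 9.70, 9.61 and 9.62 in knockout and 9.09, 9.08 and 9.0 in wild type (difference 0.57, SE 0.060, adjusted p = 0.000454). Unlike Tnpo2, Ipo4 and Ipo5 were about equally high in all 4 knockout arrays with these probe sets. A dimmer Ipo5 probe set stood at -0.56 (limma adjusted p = 0.0695 over all probe sets). Ipo9, an importer of histones and actin, rose by 0.42 (SE 0.060), Tnpo3, which imports splicing factors of the SR family, by 0.28 (SE 0.059), and Ipo13, which works in both directions, by 0.27 (SE 0.062).

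The carriers that fell were Ipo7 and Tnpo1. Ipo7, which carries ribosomal proteins and histones, read 9.58, 9.67, 9.77 and 9.72 in knockout and 10.10, 10.13 and 10.12 in wild type, so all knockout arrays were below all wild-type arrays (difference -0.43, SE 0.065, adjusted p = 0.00209). Tnpo1, the carrier of many hnRNP proteins, read 7.66, 7.61, 8.41 and 8.26 in knockout and 8.62, 8.67 and 8.75 in wild type, lowest in replicates 1 and 2 (difference -0.70, SE 0.21, adjusted p = 0.0328). The Tnpo1 call was lost without knockout replicate 1 or 2 or without any 1 of the wild-type arrays (adjusted p = 0.061 to 0.103), and its other probe sets rose. Kpnb1, importin beta itself, stood at 0.41 (SE 0.15, adjusted p = 0.0605), Ipo8 at -0.37 (adjusted p = 0.112), Ranbp6, a dim relative of Ipo5, at -0.40 (adjusted p = 0.132) and Ipo11 at -0.015 (adjusted p = 0.908).

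**Figure D3:**
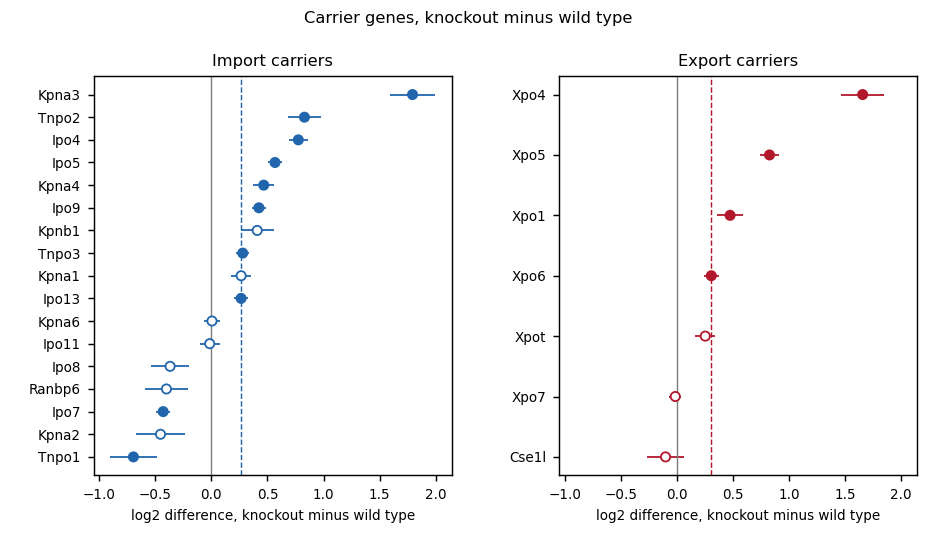
Log2 difference, knockout minus wild type, with its SE for 17 import carriers (left, blue) and 7 export carriers (right, red). Filled points passed the limma threshold and dashed lines mark the group medians, 0.27 for import and 0.31 for export. Points of both groups lie on either side of 0, with Kpna3 and Xpo4 farthest to the right.

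Of the 7 export carriers, 4 rose (57.1%), 3 did not pass and 0 fell, beside 21.5% higher and 21.6% lower among all genes. At an unadjusted p under 0.05, 5 were higher and 0 lower with limma, but the share of all genes at that threshold is not given here. Xpo4, an exportin that also imports some transcription factors, read 6.99, 6.94, 6.41 and 6.28 in knockout and 5.10, 4.99 and 4.91 in wild type. All knockout arrays were higher, replicates 1 and 2 most (difference 1.66, SE 0.19, adjusted p = 0.000632). Xpo5, the exporter of microRNA precursors, read 7.01, 6.99, 6.93 and 6.79 in knockout and 6.23, 5.99 and 6.10 in wild type, with little spread in either group (difference 0.83, SE 0.087, adjusted p = 0.000454).

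Xpo1, the main exporter of proteins with leucine-rich export signals, read 9.69, 9.71, 10.08 and 10.02 in knockout and 9.39, 9.37 and 9.44 in wild type (difference 0.47, SE 0.11, adjusted p = 0.0139). A second Xpo1 probe set fell and a second Xpo5 probe set did not pass, as given further on. Xpo6, the exporter of actin bound to profilin, rose by 0.31 (SE 0.067, adjusted p = 0.00984). Xpot, which exports tRNA and was the brightest export carrier, read 10.37, 10.42, 10.67 and 10.65 in knockout and 10.26, 10.28 and 10.29 in wild type. Its groups did not overlap, but the difference of 0.25 did not pass (adjusted p = 0.0593). Cse1l, which returns importin alpha to the cytoplasm, read 8.65, 8.77, 9.25 and 9.24 in knockout and 9.16, 9.01 and 9.07 in wild type, with replicates 1 and 2 below and replicates 3 and 4 above wild type (difference -0.10, SE 0.16, adjusted p = 0.644). Xpo7 stood at -0.015 (adjusted p = 0.846).

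Import and export carriers were set against each other on each array. The median difference from the wild-type mean for import carriers was 0.26, 0.23, 0.18 and 0.30 in knockout replicates 1 to 4, against -0.020, 0.015 and -0.0044 in wild type. For export carriers it was 0.29, 0.31, 0.39 and 0.37 in knockout, against 0.079, -0.030 and -0.0095 in wild type. Both medians were thus higher in every knockout array than in any wild-type array. The export median exceeded the import median by 0.025, 0.078, 0.21 and 0.079 in the knockout arrays, and in the wild-type arrays the same subtraction gave 0.099, -0.045 and -0.0051. Only replicate 3 lay outside the wild-type range. Over the group means the excess was 0.041, less than 0.079, its SD over the knockout arrays. When all probe sets of each gene were averaged, the export median was -0.10 and export minus import -0.37, so the sign of both depends on the probe sets used.

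**Figure D4:**
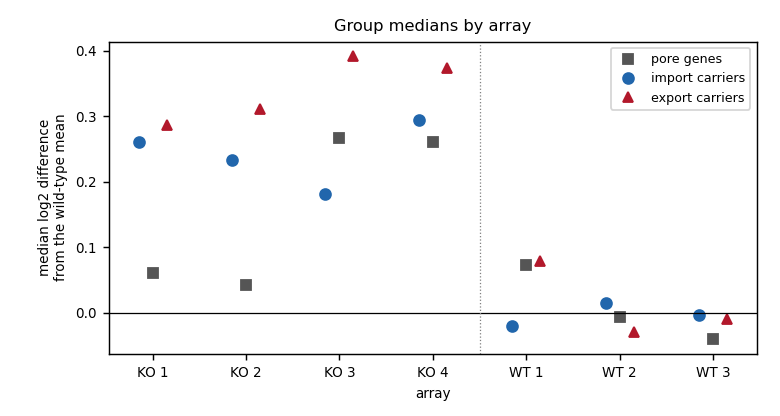
Median log2 difference from the wild-type mean over 19 pore genes (grey squares), 17 import carriers (blue circles) and 7 export carriers (red triangles) on each array, with 4 knockout arrays left of 3 wild-type arrays. Both carrier medians lie between 0.18 and 0.39 in every knockout array and between -0.030 and 0.079 in wild type. The pore median of knockout replicates 1 and 2 is 0.060 and 0.042, that of replicates 3 and 4 is 0.27 and 0.26.

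Next to Nxf7, the other mRNA export receptor that passed was Nxf1, the receptor of bulk mRNA. It read 7.99, 7.90, 7.98 and 8.02 in knockout and 7.64, 7.56 and 7.61 in wild type, with all 4 knockout arrays equally above wild type (difference 0.37, SE 0.060, adjusted p = 0.00268). Nxt1, the cofactor that Nxf1 needs, stood at -0.036 (adjusted p = 0.691). Nxt2, the relative of Nxt1, read 6.78, 6.70, 7.84 and 7.47 in knockout and 7.13, 7.32 and 7.43 in wild type, so the pairs lay on opposite sides of wild type (difference -0.097, adjusted p = 0.803).

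In the Ran cycle, which gives transport its direction, 0 of 4 genes passed, beside 43.1% of all genes in either direction. At an unadjusted p under 0.05 with limma 0 passed as well, but the share of all genes at that threshold is not given here. With only 4 genes, little can be read from these counts. Ran, the brightest of the 54 genes, read 12.28, 12.26, 12.38 and 12.33 in knockout and 12.31, 12.36 and 12.31 in wild type, overlapping groups with a difference of -0.0099 (SE 0.059, adjusted p = 0.906). Ranbp1, which helps Rangap1 act on Ran, was at 11.35 ± 0.070 (SD, n = 4) in knockout and 11.37 ± 0.0071 (SD, n = 3) in wild type. Rangap1 differed by 0.11 (adjusted p = 0.142) and the exportin cofactor Ranbp3 by -0.13 (adjusted p = 0.279). Ranbp9 and Ranbp10, scaffold proteins that share the name rather than a transport role, stood at -0.15 and 0.060 (adjusted p = 0.243 and 0.531).

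Where a gene had several probe sets, these often disagreed. The values so far are from the probe set with the highest mean, and 37 of the 54 genes had more than 1. When every probe set was fitted on its own over the whole table, 33 of the 114 probe sets of these genes were higher in knockout (28.9%, beside 19.5% of all named probe sets) and 8 lower (7.02%, beside 21.1%). In 4 of the 37 genes, which is 10.8%, at least 1 probe set rose and at least 1 fell, beside 7.08% of all genes with several probe sets. These 4 were Xpo1, Tnpo1, Nup50 and Nup153. In 5 genes, which is 13.5%, at least 2 probe sets passed and all that passed went the same way, beside 25.1% of all such genes. These were Ipo4, Ipo9, Tnpo2, Tnpo3 and Nup188, and for Tnpo2 and Tnpo3 all 3 probe sets rose.

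The second Xpo1 probe set read 7.09, 7.11, 8.06 and 7.99 in knockout and 8.78, 8.70 and 8.66 in wild type. Here all knockout arrays were below wild type, replicates 1 and 2 most (difference -1.15, SE 0.27, limma adjusted p = 0.0151 over all probe sets). Xpot showed a like split that did not pass: its dimmest probe set read 7.18, 7.01, 8.64 and 8.51 in knockout and 8.95, 8.95 and 8.97 in wild type (difference -1.12, adjusted p = 0.0747). For Tnpo1 it was the brightest probe set that fell, while another read 9.06, 9.0, 8.29 and 8.31 in knockout and 7.33, 7.19 and 7.24 in wild type (difference 1.41, SE 0.22, adjusted p = 0.00269). The third Tnpo1 probe set rose by 1.17 (SE 0.22, adjusted p = 0.00586).

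In Nup50 both dimmer probe sets fell by 0.70 (adjusted p = 0.00219 and 0.00165). In Nup153 a second probe set fell by 0.66 (SE 0.067) and the dimmest rose by 0.48 (SE 0.097); that one had a mean of 3.64 in knockout and 3.16 in wild type, close to the lowest 5% of genes. Kpna3, past 2-fold with its probe set of highest mean, stood at -0.14 and 0.16 with the others (adjusted p = 0.368 and 0.254). The second probe set of Xpo5 stood at -0.16 (adjusted p = 0.16), and the second Xpo4 probe set was dim, at 2.29 in knockout and 2.42 in wild type. In wild type the chosen probe sets of Kpna3 (6.69), Xpo5 (6.11) and Kpnb1 (7.97) were dimmer than another of the same gene (7.52, 6.54 and 8.39). They were thus chosen through their knockout values, and that of Tnpo1 through its wild-type values. Kpnb1 had differences of 0.41, -0.71, 0.17 and 0.78 over 4 probe sets. Ran had 4 bright probe sets between -0.0099 and 0.21 and a dimmer one that fell by 0.78 (SE 0.21, adjusted p = 0.0234). Among probe sets with a difference beyond -0.5, those of the following genes were lowest in knockout replicates 1 and 2: Xpo1, Xpot, Kpnb1, Ran, Ipo5, Nup155 and Tnpo1. Those of Nup50 (both) and the second of Nup153, all of which fell, did not have this order. Where on its transcript each probe set lies was not used here, and the cause of the split was not tested.

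**Figure D5:**
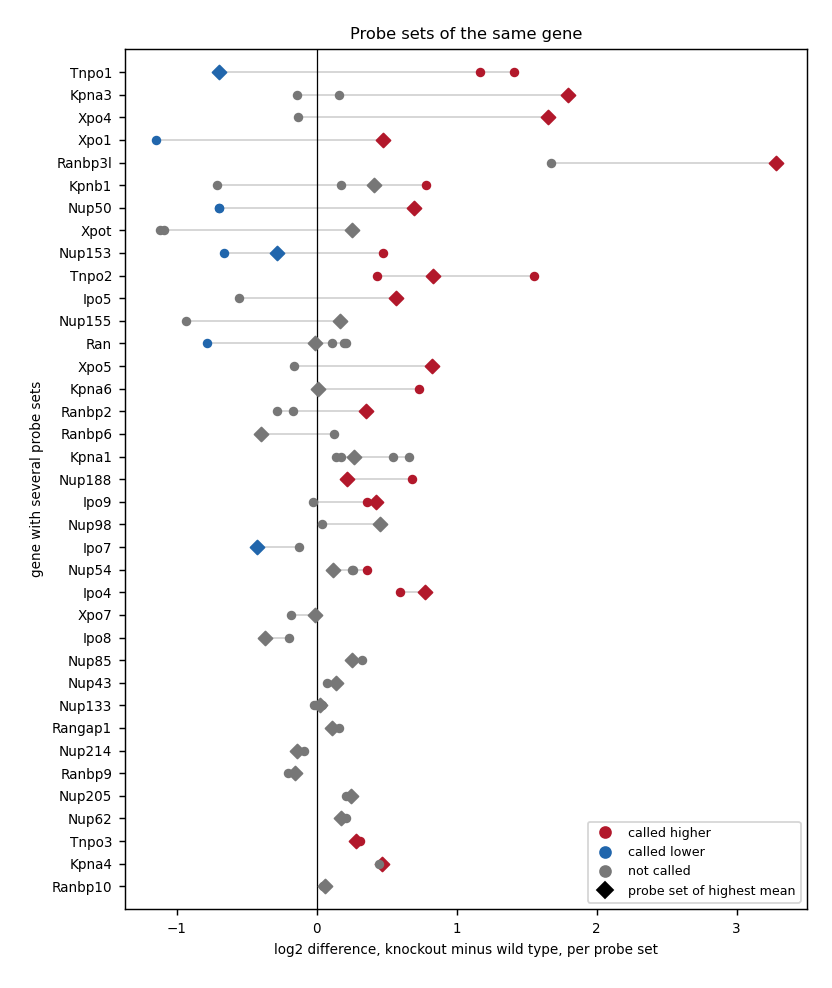
Log2 difference, knockout minus wild type, of each probe set (points) for the 37 genes with several probe sets (rows, widest spread at the top). Diamonds mark the probe set of highest mean used for the gene, red points were called higher, blue points lower and grey points not called. Tnpo1, Xpo1, Nup50 and Nup153 carry both red and blue points.

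Further genes of nuclear transport that the symbols did not catch were read from a list of 47, of which 41 were measured. Of these 11 rose, 4 fell and 26 did not pass, which is 26.8% higher and 9.76% lower, beside 21.5% and 21.6% of all genes; the higher share is near that of all genes. Among 10 further pore proteins 4 rose (40%), led by Gle1, which activates mRNA release at the cytoplasmic face. It read 6.83, 6.75, 6.64 and 6.69 in knockout and 6.04, 5.47 and 5.53 in wild type (difference 1.04, SE 0.14, adjusted p = 0.00128). Ahctf1, which seeds pore assembly on chromatin, rose by 0.67 (SE 0.076) and Rae1, an mRNA export factor of the pore, by 0.43 (SE 0.10), and the Y complex member Seh1l rose as well. The older symbols Nupl1 and Nupl2, for Nup58 and Nup42, stood at -0.057 and 0.30 and did not pass.

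Of 6 measured Ran cycle and import helpers 1 rose (16.7%) and 2 fell (33.3%), beside 21.5% higher and 21.6% lower among all genes. Rcc1, the exchange factor that loads Ran with GTP on chromatin, read 7.63, 7.66, 7.57 and 7.61 in knockout and 7.17, 7.12 and 7.09 in wild type (difference 0.49, SE 0.057, adjusted p = 0.000698). Rcc1 thus rose evenly in all 4 knockout arrays while Ran itself did not pass. Rangrf, a Ran-binding protein, fell by 0.54 (SE 0.076), and Rcc2, a mitotic relative of Rcc1, by 0.86 (SE 0.21). Of 20 measured mRNA export genes 5 rose (25%) and 1 fell (5.0%), and the higher share is near that of all genes. The largest rises were in Mcm3ap, the scaffold of the export complex TREX-2 (0.38, SE 0.085), in Fyttd1, an adaptor for Nxf1 (0.35, SE 0.076), and in Ddx39b, the TREX helicase (0.35, SE 0.062), and Thoc6 fell by 0.25 (SE 0.075). Of 5 genes of small RNA, tRNA and ribosomal subunit export, Ltv1, an assembly factor of the small subunit, rose by 0.41 (SE 0.087). Dgcr8, the partner of Drosha in cutting the precursors that Xpo5 exports, fell by 0.97 (SE 0.24, adjusted p = 0.0173).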

How the data were processed

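The authors deposited 1 column of normalized probe set intensity per array, on a linear scale; these are RMA values per the submitters' processing notes, whose version is unstated. Median intensity ran from 93.8 to 101 over the 7 arrays. Precision is limited by having 7 arrays. Log2 was taken of the 19431 probe sets, 17335 of which have 1 gene symbol in the platform annotation (532 have several, 1564 are unnamed). Each of 9999 genes was represented by its probe set of highest mean over all arrays, with no filter on low values. That choice can rest on the group in which a probe set is high, as for Kpna3, Xpo5 and Kpnb1. Groups came from the sample titles. limma 3.58.1 in R 4.3.3 compared 4 knockout with 3 wild-type arrays (lmFit, eBayes, two-sided), with Benjamini-Hochberg adjustment over all genes. Every adjusted p is from this fit unless another is named. The fit was also run on simulated arrays, where 50% of changes of 0.5 and 86% of changes of 1.0 on the log2 scale were recovered, with 11 false calls. The simulated arrays were independent, so that run does not cover the pairs seen among the knockout arrays.

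Gene names followed a RefSeq table of GRCm38.p6, in which 17297 probe sets matched by gene number. The members, the roles and the further lists were chosen with earlier results of these data known. Genes named with values were members past the threshold by at least 0.5 on the log2 scale, all carriers, the brightest member of each role, and up to 3 per direction of each further list; others, such as Nup98, Nup107, Nxt2 and the probe sets that disagree, were chosen after their values were seen. Promoter windows came from RefSeq; the motifs were chosen after the values were seen, the NRF1 and NF-kappaB consensus forms after narrower exact forms had been counted. Protein sequences were not used here. Alternatives covered scaling, dim genes, the prior, array weights, the choice of probe set, blocks and left-out arrays; leaving out _s_at and _x_at probe sets, fitting each probe set, and blocks that include the wild-type arrays were added after the data were seen.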

Additional observations from a re-analysis of the deposited data

Results flagged for a closer look

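Among the 54 genes, 1 had a knockout array far from the other 3: Nup133, a Y complex gene, read 7.15, 7.13, 7.11 and 7.33 in knockout replicates 1 to 4, against 7.43, 7.08 and 6.97 in wild type. The gap of replicate 4 to its neighbour was 0.843 of the range, above Dixon's limit at the 95% level. Among independent arrays, chance alone would mark about 1 gene in 20. The knockout arrays formed pairs, so that rate need not hold for the 54 genes examined.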

How the results depend on the processing

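The 20 higher and 3 lower genes were 13 to 21 and 1 to 5 when single arrays were left out, with 13 higher and 1 lower without wild type replicate 2, 1 lower without wild type replicate 3 and 5 lower without knockout replicate 3. Lower genes numbered 5 without knockout replicates 1 and 2 and 10 without replicates 3 and 4. With knockout pairs and wild type as random blocks 4 were higher and 0 lower with limma. At an unadjusted p under 0.05 these numbers were 12 and 2, and the share of all genes at that threshold is not given here. With only the knockout pairs as blocks 16 of the 23 calls were kept. With a replicate block 17 were higher and 2 lower; same-numbered arrays did not pair (correlations of deviations 0.12, -0.090 and 0.11).

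Over all genes, 2149 higher and 2156 lower calls became 448 and 456 with knockout pairs and wild type as random blocks and 3406 and 3408 without knockout replicates 3 and 4, and higher calls were 1379 without wild type replicate 2 and 1404 without wild type replicate 3. They were 2768 without knockout replicates 1 and 2 and 2669 with array weights. With the mean of probe sets they were 2023, with the replicate block 1947 and with knockout pairs as blocks 1575. Higher pore genes, 5 with all arrays, numbered 13 without knockout replicates 1 and 2, 9 with array weights, 3 with the mean of probe sets or the replicate block, 1 with knockout pairs as blocks and 0 with wild type as a further block. Import carriers, 8 higher and 2 lower, were 1 and 0 with those 3 blocks, with 5 lower without knockout replicates 3 and 4, 4 lower without knockout replicate 3 and 0 lower with the dimmest probe set. Export carriers, 4 higher and 0 lower, were 1 and 1 with the dimmest probe set, with 1 higher in the 3 blocks and 2 higher without wild type replicate 2.

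The choice of probe set turned several signs. With the mean of probe sets the export median was -0.10 and export minus import -0.37, with the dimmest probe set -0.16 and -0.43, and without _s_at and _x_at probe sets the import and export medians were 0.14 and 0.25. Without knockout replicates 1 and 2 the export median was 0.38. Single genes turned with the mean of probe sets, to -0.23 for Nup50, -0.032 for Ranbp2, 0.63 for Tnpo1 and -0.34 for Xpo1. With the dimmest probe set Ipo5 stood at -0.56, Ipo9 at -0.026, Nup153 at 0.48, Nup50 at -0.70, Ranbp2 at -0.28, Tnpo1 at 1.17, Xpo1 at -1.15, Xpo4 at -0.13 and Xpo5 at -0.16, and Xpo5 was at -0.16 without _s_at and _x_at probe sets. The cause was not tested. All 23 calls were kept with quantile normalization, median centring, the trend and robust prior and array weights.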
